A study of Homo sapiens with 8 samples.

Results

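The genes described here serve protein folding and its quality control in the endoplasmic reticulum, the compartment in which secreted and membrane proteins are folded. A list of 36 named genes was taken: Hsp70 and Hsp90 class chaperones with their J-protein partners, lectin chaperones, disulphide oxidoreductases, 2 secreted stress proteins, genes of endoplasmic reticulum-associated degradation (ERAD), the stress sensors with a transcription factor of theirs, and 3 genes of the translocation channel. Probes were annotated to 35 of the 36 genes, and 32 had a probe bright enough to be tested, among 12300 genes tested in all. The probes of PDIA3, SEL1L and ERN1 were detected on 0 of the 7 arrays that have detection p-values, and HERPUD1, with no annotated probe, was not analysed here.

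RNA came from the 293T line, human embryonic kidney cells with a stably expressed T antigen of simian virus 40. Every group expressed a short hairpin RNA, either the control (NCsh) or one that depletes a chromatin or transcription protein. H1.2sh targets H1.2, a linker histone, Cul4Ash targets Cul4A, on which ubiquitin ligases are assembled, and PAF1sh targets PAF1, part of a complex that accompanies RNA polymerase II during elongation. Each group had 2 arrays, 8 in all. The labels name 1 hairpin per target, no rescue and no time after hairpin delivery. They do not say whether the 2 arrays of a group are separate cultures. The p-values therefore reflect only array-to-array spread, possibly technical.

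Proteins enter the endoplasmic reticulum through the Sec61 channel and are bound by BiP (the product of HSPA5), GRP94 (HSP90B1) and the lectins calnexin and calreticulin, while oxidoreductases form their disulphide bonds. Chains that fail to fold are carried back to the cytosol by ERAD, ubiquitylated and degraded. When unfolded chains accumulate, the sensors IRE1 (ERN1), ATF6 and PERK (EIF2AK3) set off the unfolded protein response: IRE1 splices the mRNA of XBP1, and spliced XBP1 and cleaved ATF6 then switch on chaperone and ERAD genes through short promoter elements. Genes induced through the PERK arm include ATF4 targets such as DDIT3, TRIB3 and CHAC1.

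The promoters of several of these genes hold the element through which that response acts, and the elements are shown because the genes that hold them did not move as one group in these arrays. The endoplasmic reticulum stress element, ERSE, was searched on both strands as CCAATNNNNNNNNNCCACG in the RefSeq promoter windows of GRCh38.p14, from 250 bases before to 50 bases after each start. It was found in 8 of the 33 listed genes with a window (24.2%), against 25 of 27305 genes in the whole promoter table (0.0916%). The lines below give each element 5′ to 3′ in its own orientation, with the fixed letters in capitals.
HSPA5 (chr9:125241391-125241409): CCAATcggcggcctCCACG
HSP90B1 (chr12:103930216-103930234): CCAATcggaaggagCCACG
HSP90B1 (chr12:103930321-103930339): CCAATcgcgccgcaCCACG
CALR (chr19:12938384-12938402): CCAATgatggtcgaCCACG
CANX (chr5:179698778-179698796): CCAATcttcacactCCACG
PDIA6 (chr2:10812853-10812871): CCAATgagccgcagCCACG
ERO1B (chr1:236282183-236282201): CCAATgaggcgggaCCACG
CRELD2 (chr22:49918554-49918572): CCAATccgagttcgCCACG
XBP1 (chr22:28800603-28800621): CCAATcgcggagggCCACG

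A shorter form, ERSE-II, searched as ATTGGNCCACG on both strands, was found in 3 of the 33 genes (9.09%) and in 0.0696% of all genes in the table. No listed gene held both forms.
HYOU1 (chr11:119057274-119057284): ATTGGaCCACG
HYOU1 (chr11:119057380-119057390): ATTGGaCCACG
SDF2L1 (chr22:21642114-21642124): ATTGGtCCACG
HERPUD1 (chr16:56932025-56932035): ATTGGgCCACG

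The whole windows of HSPA5, HSP90B1 and XBP1 follow, since these genes hold the same element and PAF1sh arrays read lower for the first, higher for the second and lower for the third. Each is written on the strand of its gene, with ERSE letters in capitals. HSPA5 and XBP1 lie on the minus strand and HSP90B1 on the plus strand, and in HSP90B1 the second element appears as its reverse complement. The base of the element farthest upstream on the gene's strand stood 66 bases before the start in HSPA5, 194 and 89 in HSP90B1 and 52 in XBP1.
HSPA5 (chr9:125241294-125241593): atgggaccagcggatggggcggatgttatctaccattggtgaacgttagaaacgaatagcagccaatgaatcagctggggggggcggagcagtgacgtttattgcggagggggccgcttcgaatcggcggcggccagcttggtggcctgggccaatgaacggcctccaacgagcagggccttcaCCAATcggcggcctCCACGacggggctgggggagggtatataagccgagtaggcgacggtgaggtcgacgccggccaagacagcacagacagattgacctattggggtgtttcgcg
HSP90B1 (chr12:103930160-103930459): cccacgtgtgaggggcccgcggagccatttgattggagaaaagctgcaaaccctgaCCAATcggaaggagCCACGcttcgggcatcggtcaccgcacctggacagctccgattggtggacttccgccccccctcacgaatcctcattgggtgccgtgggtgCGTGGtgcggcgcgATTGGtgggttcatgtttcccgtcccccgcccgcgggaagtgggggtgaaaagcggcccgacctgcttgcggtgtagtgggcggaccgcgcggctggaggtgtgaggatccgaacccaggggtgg
XBP1 (chr22:28800520-28800819): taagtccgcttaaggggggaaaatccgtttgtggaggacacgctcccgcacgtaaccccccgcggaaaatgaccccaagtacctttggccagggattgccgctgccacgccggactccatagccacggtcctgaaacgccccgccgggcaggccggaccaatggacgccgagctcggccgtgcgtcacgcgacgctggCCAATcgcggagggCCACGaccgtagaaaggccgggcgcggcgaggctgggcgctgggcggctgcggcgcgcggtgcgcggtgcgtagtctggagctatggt

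The 8-letter element TGACGTGG (UPRE, both strands) was found in DNAJC10 and HYOU1, 6.06% of the 33 genes and 0.927% of all genes; the HYOU1 copy overlaps an ERSE-II. TTGCATCA, a core of the amino acid response element (both strands), was found in HERPUD1 alone of the 33 (3.03%) and in 1.08% of all genes. Any CCAAT, which lies within ERSE, was present in 28 of the 33 genes (84.8%) and in 39.7% of all genes. These matches describe letters in a window and not binding.

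Array medians lay between 82.8 and 88.7 intensity units, 39.2% to 42.5% of probes were detected per array, and arrays of a group correlated at 0.996 over the tested genes. The number of arrays limits the precision. Of the 293T markers, 6 of 8 were detected on all 7 arrays with detection p-values (NEFM, NEFL, INA, EPCAM, KRT8, KRT18), while PAX2 and LHX1 were detected on 0. Of genes of other cells, 0 of 3 endothelial markers were detected, as against CD14 and CD79A among 4 blood markers with a probe and COL1A1, COL3A1 and DCN among 5 fibroblast markers. Those blood and fibroblast detections rested on dim probes, but so did those of EPCAM and KRT8 among the 293T markers. The probe detected on all 7 arrays read 6.59 to 7.01 log2 intensity for EPCAM and 6.63 to 7.23 for KRT8. For CD14 it read 6.86 to 7.34, and for COL1A1 6.59 to 7.32. Another EPCAM probe was detected on 0 arrays. CD14 was detected on 7 arrays with 1 probe and on 0 with another, and CD79A on 5, 1 and 0 with its probes. COL1A1 was detected on all 7 arrays, COL3A1 on 3, and DCN on 3 with 1 probe and on 0 with the others. Whether any such cells were present, or had a part in the results below, was not tested. Fewer cells of a type and less RNA per cell cannot be told apart in such samples. The names of 2 scanner columns go against the matrix arrays they match: the column named for the second H1.2sh array holds Cul4Ash replicate 2 of the matrix, and the column named for the second Cul4Ash array holds its PAF1sh replicate 2. Groups follow the matrix, and the 5 arrays whose names are undisputed (both NCsh arrays and replicate 1 of each knockdown) are also fitted alone below. They are part of the same 8 arrays and so no independent repeat. With 1 array per knockdown, the spread in that fit comes from the 2 NCsh arrays alone.

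The targeted genes followed the matrix labels on each array. H1-2 read 9.24 and 9.07 log2 intensity in NCsh and 8.05 on both H1.2sh arrays, 2.15-fold lower. CUL4A read 8.46 and 8.33 in NCsh and 6.91 and 6.88 in Cul4Ash, 2.84-fold lower. PAF1 read 10.61 and 10.50 in NCsh and 7.92 and 8.03 in PAF1sh, 5.99-fold lower. The adjusted p-values (limma, Benjamini-Hochberg over all genes) were 4.39e-05, 6.96e-06 and 5.73e-08.

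Below, values are quantile-normalized log2 intensities of 1 probe per gene, differences are on that log2 scale with the standard error of the limma fit (n = 2 arrays per group), and a gene is said to rise or fall where its adjusted p was under 0.05 over all 12300 genes. Different probes are not compared in level. The 3 comparisons with the control share the same 2 NCsh arrays.

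SSR1, SYVN1 and PDIA6 rose in each knockdown, PDIA4 and DNAJB9 fell in Cul4Ash, and PAF1sh moved the most members in both directions. H1.2sh differed from NCsh in 5 of 32 members (15.6%), 4 higher and 1 lower, beside 15.4% of all genes tested (7.28% higher, 8.15% lower). Cul4Ash differed in 8 of 32 (25%), 5 higher and 3 lower, beside 20.6% of all genes (11% higher, 9.59% lower). PAF1sh differed in 16 of 32 (50%), 10 higher and 6 lower, beside 38.9% of all genes (19% higher, 19.9% lower). The share of members called was near the background in H1.2sh, within a few points of it in Cul4Ash and above it in PAF1sh, an excess that was not tested. For H1.2sh the median change of the 32 members was -0.03, for Cul4Ash -0.04 and for PAF1sh 0.01, while the medians of all genes lay between -0.01 and 0.00. Against NCsh, 13 of the 32 members passed in none of the comparisons. The share of all genes that passed in none was not worked out, so this count has no background beside it.

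**Figure D1:**
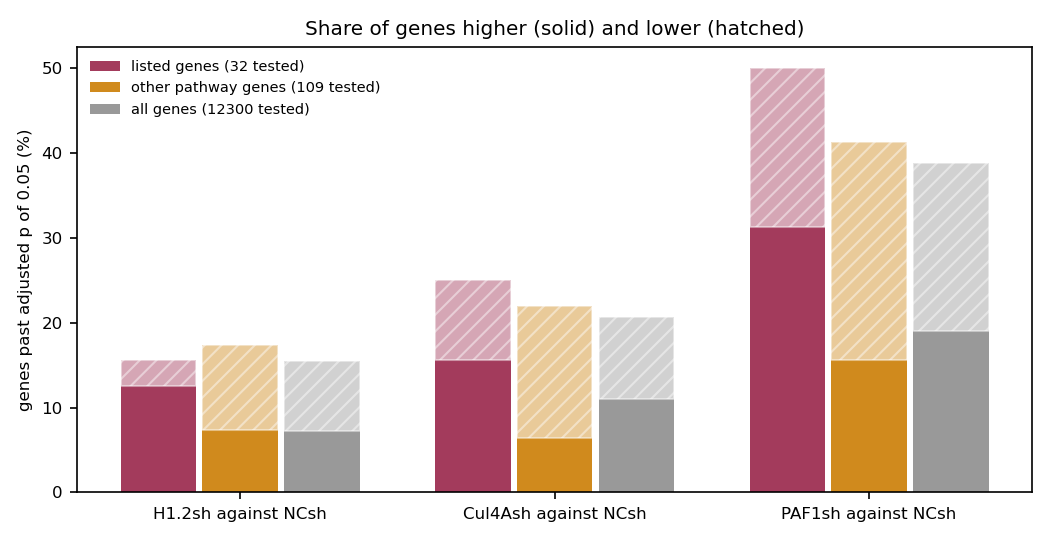
Share of genes (percent, vertical axis) past an adjusted p of 0.05 (limma) in each knockdown against NCsh, solid for higher and hatched for lower, for the 32 tested members, the 109 other pathway genes and all 12300 genes. The members' bars reach 15.6%, 25% and 50%, and those of all genes 15.4%, 20.6% and 38.9%.

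**Figure D2:**
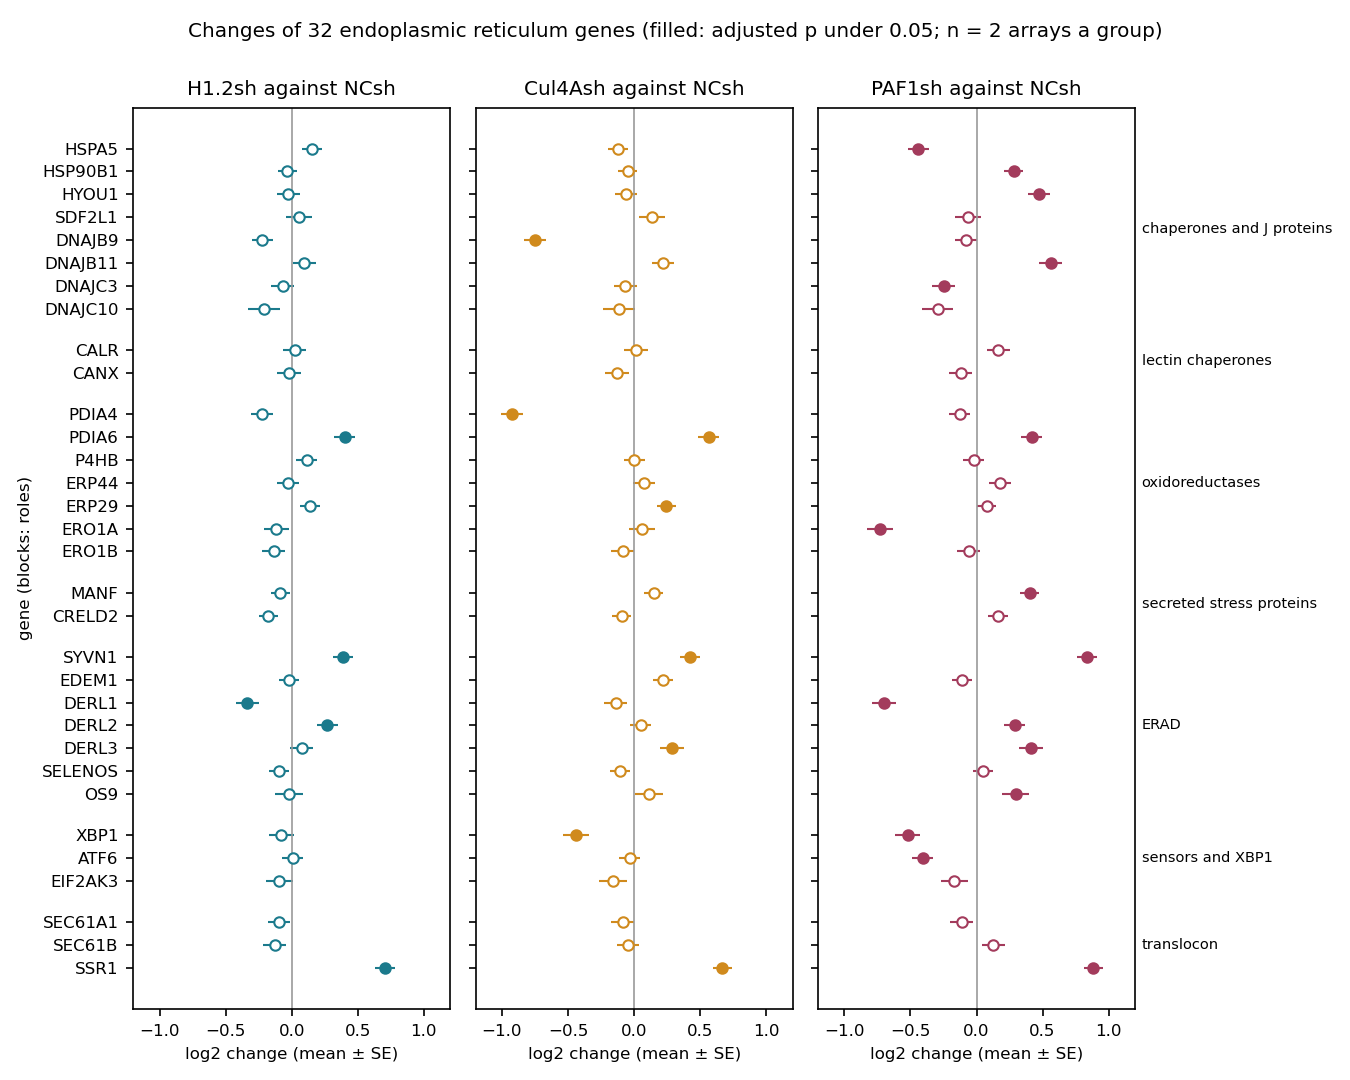
Difference from NCsh of each tested member (log2 scale) in the 3 knockdowns, with bars of 1 standard error from the limma fit (n = 2 arrays a group), genes in blocks by role, and filled points for adjusted p under 0.05. SSR1, SYVN1 and PDIA6 lie right of 0 with filled points in all 3 knockdowns, and PDIA4 and DNAJB9 lie farthest left in Cul4Ash.

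Of the 3 translocation genes, SSR1 rose in each knockdown, and SEC61A1 and SEC61B passed no test against NCsh. SSR1 encodes the alpha subunit of the translocon-associated protein complex, which helps chains enter. It read 9.04 on both NCsh arrays, 9.71 and 9.77 in H1.2sh, 9.72 and 9.69 in Cul4Ash, and 9.95 and 9.89 in PAF1sh. All 6 knockdown arrays were above both controls, and the PAF1sh arrays were the highest. The rise was 0.71 ± 0.07 in H1.2sh (1.63-fold, adjusted p = 0.000157), 0.67 ± 0.07 in Cul4Ash (1.59-fold, adjusted p = 0.000191) and 0.88 ± 0.07 in PAF1sh (1.84-fold, adjusted p = 1.24e-05). It was also higher in PAF1sh than in Cul4Ash (by 0.22 ± 0.07, adjusted p = 0.0379). That difference did not pass in most of the alternatives on 7 or 8 arrays, the fit with a replicate block among them. SEC61A1, which forms the pore, read 11.82 and 11.93 in NCsh, 11.85 and 11.70 in H1.2sh, 11.85 and 11.73 in Cul4Ash, and 11.75 and 11.78 in PAF1sh. The pore gene passed no test against NCsh, with 95% intervals from -0.30 to 0.10 across the comparisons. SEC61B, a small subunit of the channel, read 11.90 and 11.96 in NCsh, 11.74 and 11.85 in H1.2sh, 11.79 and 11.97 in Cul4Ash, and 12.08 and 12.03 in PAF1sh. Its PAF1sh arrays lay above all others, but the difference from NCsh of 0.13 ± 0.09 did not pass (adjusted p = 0.273), whereas H1.2sh was lower than PAF1sh by 0.26 ± 0.09 (adjusted p = 0.0346). That call held in 10 of 17 alternatives on 7 or 8 arrays, and was lost with median scaling, without normalization, without the filter on dim probes and without any 1 array of these 2 groups.

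Of the 8 chaperones and J proteins, 3 rose and 2 fell in PAF1sh, 1 fell in Cul4Ash, and none passed limma's adjusted threshold in H1.2sh, where 1 had an unadjusted p under 0.05, beside 38.9%, 20.6% and 15.4% of all genes called in these knockdowns. BiP itself, the Hsp70 of the compartment, moved against several of its partners in PAF1sh. HSPA5 read 8.92 and 8.85 in NCsh, 9.06 and 9.02 in H1.2sh, 8.75 and 8.78 in Cul4Ash, and 8.38 and 8.51 in PAF1sh. Both PAF1sh arrays were below the other 6. The fall in PAF1sh was -0.44 ± 0.08 (1.36-fold, adjusted p = 0.00132), and HSPA5 was also lower in PAF1sh than in H1.2sh by 0.60 ± 0.08 (adjusted p = 0.000211) and than in Cul4Ash by 0.32 ± 0.08 (adjusted p = 0.00789). The last of these was lost with median scaling, without normalization and without PAF1sh replicate 1.

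HYOU1, an Hsp70-like exchange factor for BiP, read 8.42 and 8.54 in NCsh, 8.42 and 8.49 in H1.2sh, 8.39 and 8.45 in Cul4Ash, and 8.88 and 9.03 in PAF1sh. The PAF1sh arrays stood above the rest, which overlapped, and the rise was 0.47 ± 0.08 (1.39-fold, adjusted p = 0.00139). A second HYOU1 probe changed by 0.43 ± 0.11 there. DNAJB11, a J protein that delivers clients to BiP, read 11.02 and 10.97 in NCsh, 11.20 and 10.99 in H1.2sh, 11.23 and 11.20 in Cul4Ash, and 11.59 and 11.53 in PAF1sh. Again the PAF1sh arrays were the highest, with a rise of 0.56 ± 0.09 (1.48-fold, adjusted p = 0.000538). The DNAJB11 difference in Cul4Ash (0.22) did not pass, but did with an intensity trend in the limma fit (adjusted p = 0.0291).

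The Hsp90 of the compartment, HSP90B1, read 12.54 and 12.57 in NCsh, 12.52 on both H1.2sh arrays, 12.48 and 12.53 in Cul4Ash, and 12.81 and 12.86 in PAF1sh. The rise in PAF1sh was small, 0.28 ± 0.07 (1.21-fold, adjusted p = 0.0109), with no overlap between the groups, and it did not pass without NCsh replicate 1 (adjusted p = 0.057) or without PAF1sh replicate 2 (adjusted p = 0.0508). It did not pass with median scaling either (0.29, adjusted p = 0.0782). DNAJC3, a J protein that binds BiP and unfolded chains, read 6.97 on both NCsh arrays, 6.89 and 6.90 in H1.2sh, 6.94 and 6.86 in Cul4Ash, and 6.82 and 6.62 in PAF1sh. Its PAF1sh arrays were the lowest, -0.25 ± 0.09 from NCsh (adjusted p = 0.0414), but that fall was lost in 6 of the 8 fits without 1 array, its adjusted p reaching 0.245 without PAF1sh replicate 2.

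DNAJB9, a BiP cofactor that represses IRE1, changed mainly in Cul4Ash. Its probe read 8.38 and 8.37 in NCsh, 8.06 and 8.24 in H1.2sh, 7.65 and 7.60 in Cul4Ash, and 8.31 and 8.28 in PAF1sh. Cul4Ash arrays were the lowest, H1.2sh arrays lay between them and the other groups, and the fall in Cul4Ash was -0.75 ± 0.08 (1.68-fold, adjusted p = 0.000178). In H1.2sh the difference of -0.22 ± 0.08 did not pass (adjusted p = 0.093). Cul4Ash was lower than H1.2sh by 0.53 ± 0.08 (adjusted p = 0.00138) and differed from PAF1sh by -0.67 ± 0.08 (adjusted p = 0.000123). SDF2L1, a BiP partner with ERSE-II in its promoter, and DNAJC10, a J protein that reduces disulphide bonds, passed in no comparison with NCsh. DNAJC10 read 9.09 and 9.18 in NCsh, 8.86 and 8.98 in H1.2sh, 8.84 and 9.19 in Cul4Ash, and 8.94 and 8.73 in PAF1sh, so that the Cul4Ash arrays alone overlapped the controls. The DNAJC10 difference in PAF1sh passed with median scaling (-0.36, adjusted p = 0.0254) and without normalization between arrays (-0.35, adjusted p = 0.0401). It also passed with an intensity trend in the limma fit (-0.30, adjusted p = 0.0304).

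Neither lectin chaperone passed a test against NCsh. CALR read between 10.20 and 10.49 on the 8 arrays and CANX between 8.79 and 9.01, and the 6 differences from NCsh lay between -0.13 and 0.17 with 95% intervals from -0.33 to 0.36. At an unadjusted p under 0.05, limma also gave 0 calls for these 2 genes.

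The 7 tested oxidoreductases split by gene. PDIA6, a protein disulphide isomerase that also attenuates IRE1 signalling, rose in all 3 knockdowns. It read 9.45 and 9.41 in NCsh, 9.78 and 9.88 in H1.2sh, 10.05 and 9.94 in Cul4Ash, and 9.84 and 9.86 in PAF1sh. No knockdown array overlapped the controls, and Cul4Ash arrays were the highest. The changes were 0.40 ± 0.08 in H1.2sh (adjusted p = 0.00806), 0.56 ± 0.08 in Cul4Ash (adjusted p = 0.000854) and 0.42 ± 0.08 in PAF1sh (adjusted p = 0.00186), and none of the differences between knockdowns passed. The H1.2sh value did not pass without H1.2sh replicate 2 (adjusted p = 0.067) or with median scaling in place of quantile normalization (0.31, adjusted p = 0.111).

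PDIA4, an isomerase that cooperates with BiP, gave the largest change of any member in Cul4Ash. It read 7.79 and 7.65 in NCsh, 7.44 and 7.55 in H1.2sh, 6.80 and 6.79 in Cul4Ash, and 7.58 and 7.61 in PAF1sh. The Cul4Ash arrays stood far below the other 6, a fall of -0.93 ± 0.08 (1.90-fold, adjusted p = 5.66e-05). The differences in H1.2sh (-0.23 ± 0.08, adjusted p = 0.0909) and PAF1sh (-0.13 ± 0.08, adjusted p = 0.25) did not pass, and Cul4Ash was lower than H1.2sh by 0.70 ± 0.08 (adjusted p = 0.000249) and differed from PAF1sh by -0.80 ± 0.08 (adjusted p = 4.43e-05).

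ERO1A, the oxidase that supplies oxidising equivalents to the isomerases, fell in PAF1sh. It read 8.10 and 8.22 in NCsh, 8.03 and 8.07 in H1.2sh, 8.35 and 8.10 in Cul4Ash, and 7.40 and 7.47 in PAF1sh. The PAF1sh arrays were clearly the lowest, -0.73 ± 0.10 from NCsh (1.66-fold, adjusted p = 0.000212), and PAF1sh was also lower than H1.2sh (by 0.61 ± 0.10, adjusted p = 0.00062) and Cul4Ash (by 0.79 ± 0.10, adjusted p = 0.000122). ERP29, an isomerase-like chaperone without the active site, read 11.75 and 11.83 in NCsh, 11.97 and 11.89 in H1.2sh, 12.05 and 12.02 in Cul4Ash, and 11.85 and 11.88 in PAF1sh. Every knockdown array lay above the controls, and the rise passed in Cul4Ash (0.24 ± 0.07, 1.18-fold, adjusted p = 0.0427), though not in any of the 8 fits without 1 array. P4HB, ERP44 and ERO1B passed in no comparison with NCsh, with differences between -0.14 and 0.18.

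The secreted stress proteins MANF and CRELD2 are released when calcium in the compartment falls or folding is disturbed. MANF read 12.09 and 12.12 in NCsh, 12.01 and 12.03 in H1.2sh, 12.27 and 12.24 in Cul4Ash, and 12.49 and 12.53 in PAF1sh, with no overlap between any 2 groups. The rise in PAF1sh was 0.40 ± 0.07 (1.32-fold, adjusted p = 0.00138). MANF was lower in H1.2sh than in Cul4Ash by 0.23 ± 0.07 (adjusted p = 0.041), a call that held in 6 of the 17 alternatives on 7 or 8 arrays. CRELD2 read 10.80 and 10.73 in NCsh, 10.56 and 10.62 in H1.2sh, 10.67 on both Cul4Ash arrays, and 10.90 and 10.96 in PAF1sh. The PAF1sh arrays were above and the other knockdown arrays below both controls, yet no difference from NCsh passed (-0.18, -0.10 and 0.16, adjusted p = 0.144, 0.407 and 0.108). The last did pass with an intensity trend in the limma fit (adjusted p = 0.0488). PAF1sh was higher than H1.2sh by 0.34 ± 0.07 (-0.34 for H1.2sh minus PAF1sh, adjusted p = 0.00452).

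**Figure D3:**
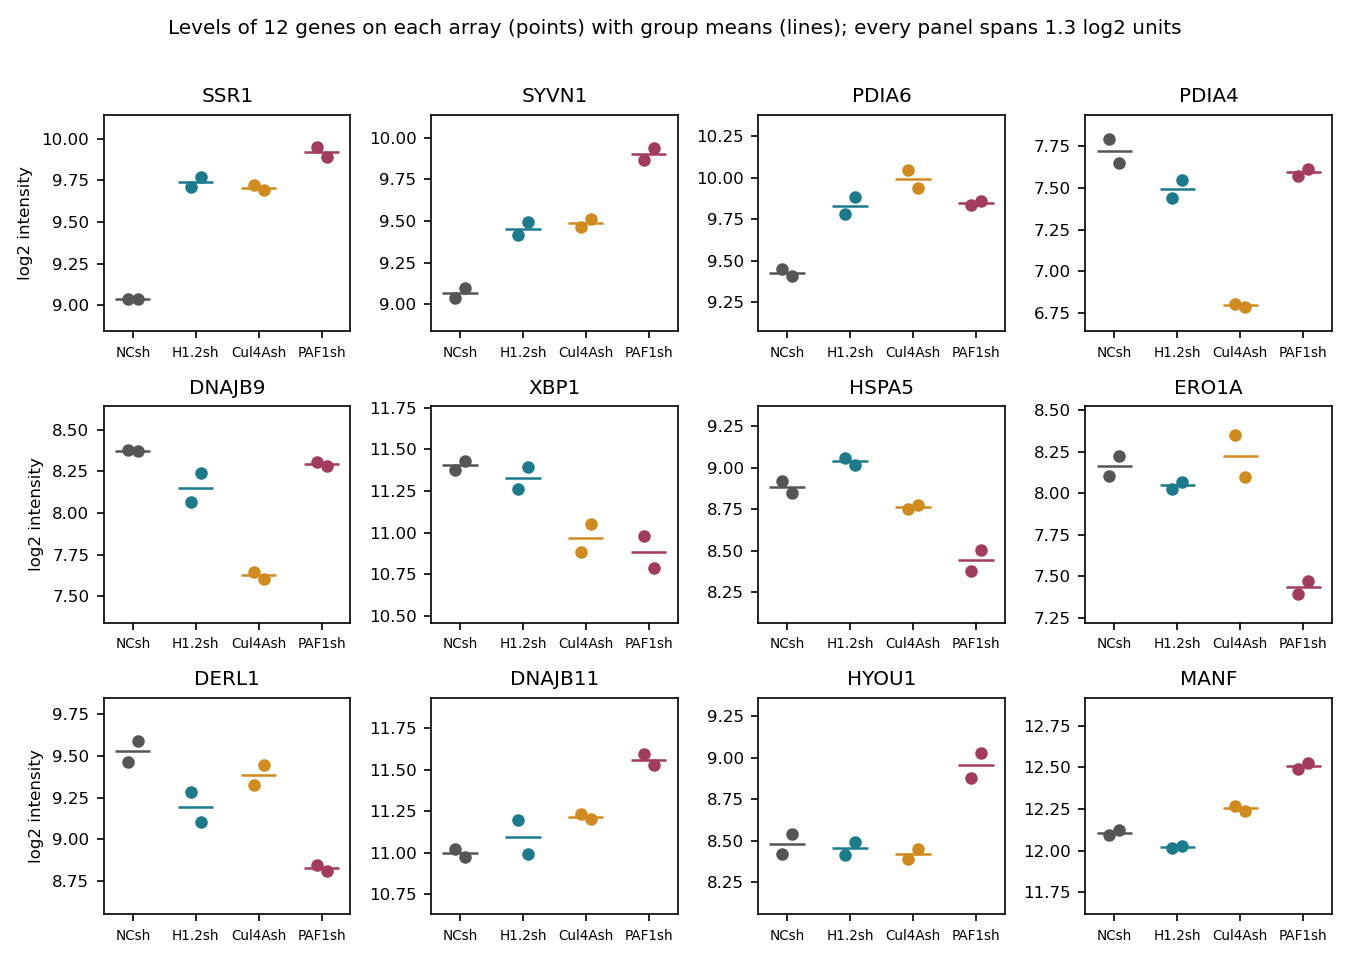
Normalized log2 intensity (vertical axis) on each of the 8 arrays for 12 members, 1 panel a gene, with points for arrays and lines for the mean of 2 arrays. The PDIA4 and DNAJB9 points drop in Cul4Ash, the ERO1A and DERL1 points drop in PAF1sh, and the SSR1 points of all 3 knockdowns lie above 9.04.

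In ERAD, 4 of 7 tested genes rose and 1 fell in PAF1sh, 2 rose and 1 fell in H1.2sh, and 2 rose in Cul4Ash, beside 38.9%, 15.4% and 20.6% of all genes called in either direction. SYVN1 encodes HRD1, the ubiquitin ligase around which the main ERAD complex is built. It read 9.04 and 9.10 in NCsh, 9.41 and 9.49 in H1.2sh, 9.46 and 9.51 in Cul4Ash, and 9.87 and 9.94 in PAF1sh. The PAF1sh arrays were the highest, the other knockdown arrays were in between, and no knockdown array overlapped the controls. The changes were 0.39 ± 0.08 in H1.2sh (1.31-fold, adjusted p = 0.00839), 0.42 ± 0.08 in Cul4Ash (1.34-fold, adjusted p = 0.00387) and 0.83 ± 0.08 in PAF1sh (1.78-fold, adjusted p = 2.2e-05). PAF1sh exceeded H1.2sh by 0.45 ± 0.08 (-0.45 for H1.2sh minus PAF1sh, adjusted p = 0.00104) and Cul4Ash by 0.41 ± 0.08 (-0.41 for Cul4Ash minus PAF1sh, adjusted p = 0.00161). A dimmer second SYVN1 probe, detected on 5 of the 7 arrays, gave 0.12, 0.12 and 0.25, of which the last passed over all probes (adjusted p = 0.0349). The H1.2sh rise did not pass without NCsh replicate 1 (adjusted p = 0.0599), without H1.2sh replicate 2 (adjusted p = 0.067) or with median scaling (0.29, adjusted p = 0.144), and the Cul4Ash rise did not pass with median scaling (0.31, adjusted p = 0.0955). The 1 annotated probe of SEL1L, the partner that stabilises HRD1, was below detection on every array with a detection p-value. Whether the gene was expressed cannot be told from that probe.

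The derlins, membrane proteins of the retrotranslocation step, went different ways. DERL1 read 9.46 and 9.59 in NCsh, 9.28 and 9.10 in H1.2sh, 9.33 and 9.45 in Cul4Ash, and 8.84 and 8.81 in PAF1sh. It was lowest in PAF1sh, a fall of -0.70 ± 0.09 (1.62-fold, adjusted p = 0.00019), and lower in H1.2sh (-0.33 ± 0.09, adjusted p = 0.032). The H1.2sh call rested on few arrays: it was lost without NCsh replicate 1 (adjusted p = 0.0622), NCsh replicate 2 (adjusted p = 0.154) or H1.2sh replicate 2 (adjusted p = 0.192). DERL2 read 9.24 and 9.28 in NCsh, 9.59 and 9.47 in H1.2sh, 9.28 and 9.33 in Cul4Ash, and 9.52 and 9.57 in PAF1sh. Its H1.2sh and PAF1sh arrays stood above the others, by 0.27 ± 0.08 (adjusted p = 0.0408) and 0.29 ± 0.08 (adjusted p = 0.0133) against NCsh, but a second DERL2 probe gave 0.40 ± 0.09 in H1.2sh and 0.01 ± 0.09 in PAF1sh. Neither DERL2 call passed with median scaling (adjusted p = 0.462 and 0.206). The H1.2sh call was also lost with a replicate block (adjusted p = 0.06). It was lost as well without any 1 array of NCsh, H1.2sh or Cul4Ash, with differences from 0.21 to 0.33. The PAF1sh call was lost without NCsh replicate 1 (0.27) or PAF1sh replicate 2 (0.26).

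DERL3 was near background: its probe was detected on 5 of the 7 arrays and on 1 of the 2 NCsh arrays. It read 6.48 and 6.37 in NCsh, 6.43 and 6.56 in H1.2sh, 6.63 and 6.78 in Cul4Ash, and 6.89 and 6.77 in PAF1sh. Values overlapped between NCsh and H1.2sh and lay above the controls in the other knockdowns, by 0.29 ± 0.09 in Cul4Ash (adjusted p = 0.0483, lost in all 8 fits without 1 array) and 0.41 ± 0.09 in PAF1sh (adjusted p = 0.00478). The second DERL3 probe gave -0.06 ± 0.11 in PAF1sh, and with the mean of both probes the PAF1sh difference was 0.17 and did not pass (adjusted p = 0.07). On 5 arrays with neqc it was 0.87 (adjusted p = 0.0276). OS9, a lectin that hands glycoproteins to HRD1, read 7.83 on both NCsh arrays, 7.87 and 7.74 in H1.2sh, 8.02 and 7.86 in Cul4Ash, and 7.99 and 8.26 in PAF1sh. The second PAF1sh array was the highest, and without it the rise of 0.30 ± 0.10 (adjusted p = 0.0452) was 0.16 and did not pass. The rise was also lost without either NCsh array or either H1.2sh array, at 0.30 each time. Nor did it pass with median scaling (0.25, adjusted p = 0.145) or a replicate block (adjusted p = 0.0614).

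EDEM1, a mannosidase-like protein that marks misfolded glycoproteins, read 8.30 and 8.36 in NCsh and 8.54 and 8.56 in Cul4Ash, a difference of 0.22 ± 0.07 that did not pass (adjusted p = 0.0645). That difference passed when probes had to be detected on all 7 scanner arrays (adjusted p = 0.0399). EDEM1 was higher in Cul4Ash than in PAF1sh by 0.33 ± 0.07 (adjusted p = 0.0055). SELENOS, a selenoprotein bound to the derlins, differed from NCsh by 0.05 ± 0.08 in PAF1sh on the probe used, while 2 other probes gave 0.31 ± 0.08 (adjusted p over all probes = 0.0119) and 0.22 ± 0.09 (adjusted p = 0.0999). With the mean of its probes the PAF1sh difference was 0.19 and passed (adjusted p = 0.0457).

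Of the sensors and their factor, 2 of 3 tested genes fell in PAF1sh, 1 in Cul4Ash and none in H1.2sh, where 0 of the 3 had an unadjusted p under 0.05 by limma. All genes were called lower in 19.9%, 9.59% and 8.15% of cases in these knockdowns. XBP1 read 11.38 and 11.43 in NCsh, 11.26 and 11.39 in H1.2sh, 10.88 and 11.05 in Cul4Ash, and 10.98 and 10.79 in PAF1sh. The Cul4Ash and PAF1sh arrays overlapped each other and lay below the rest. The falls were -0.44 ± 0.10 in Cul4Ash (1.36-fold, adjusted p = 0.0102) and -0.52 ± 0.10 in PAF1sh (1.44-fold, adjusted p = 0.00163), and a second XBP1 probe gave -0.49 ± 0.08 and -0.46 ± 0.08. The Cul4Ash fall did not pass without NCsh replicate 2 (adjusted p = 0.0517) or Cul4Ash replicate 1 (adjusted p = 0.0821). Neither probe is known here to tell the spliced from the unspliced mRNA, so the level says nothing of splicing. ATF6, a membrane-bound transcription factor released by cleavage in the Golgi, read 9.45 and 9.62 in NCsh, 9.57 and 9.52 in H1.2sh, 9.53 and 9.47 in Cul4Ash, and 9.15 and 9.10 in PAF1sh. Both PAF1sh arrays were below all others, and the fall was -0.41 ± 0.08 (1.33-fold, adjusted p = 0.0027). EIF2AK3 read 6.97 and 6.81 in NCsh, 6.94 and 6.66 in H1.2sh, 6.69 and 6.78 in Cul4Ash, and 6.77 and 6.68 in PAF1sh. The H1.2sh arrays overlapped the controls, the others lay just below them, and no difference passed (-0.09, -0.16 and -0.17, each ± 0.10). The ERN1 probe, at 54.2 to 67.4 intensity units, was not detected.

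Genes with an element in the promoter did not share a direction. Of the 10 tested members with ERSE or ERSE-II, 1 rose and 0 fell in H1.2sh, 1 rose and 1 fell in Cul4Ash, and 3 rose and 2 fell in PAF1sh, with median changes of -0.02, -0.07 and 0.05. Of the 20 tested members with a window and neither element, 3 rose and 0 fell, 3 rose and 2 fell, and 6 rose and 3 fell, with medians of -0.05, 0.03 and 0.01. Of all genes, 7.28% rose and 8.15% fell in H1.2sh, 11% and 9.59% in Cul4Ash, and 19% and 19.9% in PAF1sh. Both directions were thus common among all genes, and no difference between the promoter groups was tested. HSP90B1, HYOU1 and PDIA6 with such elements rose in PAF1sh while HSPA5 and XBP1 fell, and SDF2L1, CALR, CANX, ERO1B and CRELD2 passed in none of the comparisons with NCsh. SSR1, with the largest rise in each knockdown, and SYVN1 held neither element in these windows. DERL1 and DERL3 have no entry in the promoter table.

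**Figure D4:**
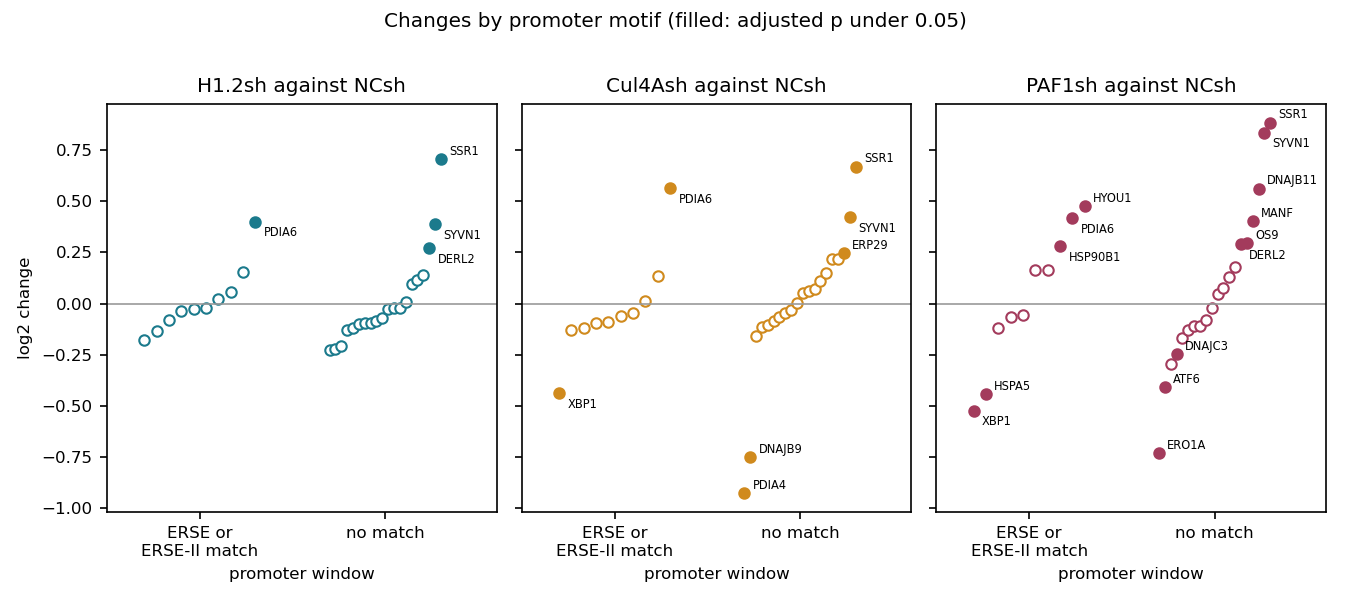
Difference from NCsh (log2 scale, vertical axis) of tested members in 2 columns, those with ERSE or ERSE-II in the promoter window and those with neither, 1 panel a knockdown; filled, labelled points passed at adjusted p under 0.05. In the PAF1sh panel the column with an element holds points from -0.52 to 0.47 and the column without holds points from -0.73 to 0.88.

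The knockdowns were also set against each other. H1.2sh against Cul4Ash differed in 6 of 32 members, 4 higher and 2 lower, beside 22.6% of all genes (10.2% higher, 12.4% lower): HSPA5, DNAJB9, PDIA4 and XBP1 were higher in H1.2sh, and MANF and EDEM1 lower. Of these, DNAJB9 and PDIA4 held in all 17 alternatives on 7 or 8 arrays, XBP1 in 13, HSPA5 in 10, and MANF and EDEM1 in 6 each. H1.2sh against PAF1sh differed in 14 members, 5 higher (HSPA5, ERO1A, DERL1, XBP1, ATF6) and 9 lower (HSP90B1, HYOU1, DNAJB11, MANF, CRELD2, SYVN1, DERL3, OS9, SEC61B), beside 40.2% of all genes (19.7% higher, 20.4% lower). Cul4Ash against PAF1sh differed in 15 members, 5 higher (HSPA5, ERO1A, EDEM1, DERL1, ATF6) and 10 lower (HSP90B1, HYOU1, DNAJB9, DNAJB11, PDIA4, MANF, CRELD2, SYVN1, DERL2, SSR1), beside 41% of all genes (21.2% higher, 19.8% lower). Against PAF1sh, the calls that held least often in those alternatives were SSR1 (5 of 17) and DERL2 (9 of 17) from Cul4Ash and SEC61B (10 of 17) from H1.2sh. As shares of the members these were 18.8%, 43.8% and 46.9%, each within a few points of the background.

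On the 5 arrays with undisputed names, 1 member rose and 0 fell in H1.2sh (SSR1, 0.68, adjusted p = 0.00718; 4 higher and 3 lower at an unadjusted p under 0.05), 3 rose and 3 fell in Cul4Ash, and 7 rose and 5 fell in PAF1sh. The Cul4Ash calls there were SSR1, PDIA6, SYVN1, PDIA4, DNAJB9 and XBP1, and the PAF1sh calls were SSR1, SYVN1, DNAJB11, DERL3, PDIA6, HYOU1, MANF, ERO1A, DERL1, HSPA5, XBP1 and ATF6. When the scanner signals of these arrays were processed with limma's neqc, 0 members passed in H1.2sh and Cul4Ash (4 higher and 2 lower, and 3 higher and 3 lower, at an unadjusted p under 0.05), while in PAF1sh 4 rose (SSR1, SYVN1, DERL3, DNAJB11) and 3 fell (ERO1A, DERL1, HSPA5). Neither fit on 5 arrays measures the spread among arrays of a knockdown. With median scaling of all 8 arrays, 1 rose and 1 fell in H1.2sh, 2 rose and 3 fell in Cul4Ash, and 7 rose and 6 fell in PAF1sh. Without normalization between arrays the counts were the same.

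Other genes of the pathway, 109 tested in 7 lists, were called about as often as all genes when the lists were pooled. In H1.2sh 8 rose and 11 fell (17.4%), in Cul4Ash 7 rose and 17 fell (22%), and in PAF1sh 17 rose and 28 fell (41.3%). All genes were called in 15.4%, 20.6% and 38.9% of cases. Among 15 genes of sensor processing and the PERK arm, 3 rose and 6 fell in PAF1sh, 1 rose and 3 fell in Cul4Ash, and 3 rose and 2 fell in H1.2sh. The shares called in this list were 60%, 26.7% and 33.3%. Those of PAF1sh and H1.2sh were above the shares of all genes, an excess that was not tested. That of Cul4Ash was within a few points of its background. MBTPS1, the first protease that cleaves ATF6, read 9.88 and 9.99 in NCsh and 8.92 and 9.04 in PAF1sh, without overlap. It fell there by -0.96 ± 0.09 (adjusted p = 2.22e-05), as did MBTPS2, the protease of the next cut (-0.53 ± 0.09, adjusted p = 0.000744). MBTPS2 was also lower in H1.2sh on the probe used (-0.39, adjusted p over all probes = 0.017), where another probe gave -0.31. DDIT3, which encodes CHOP, read 7.85 and 7.86 in NCsh, 8.66 on both H1.2sh arrays, 7.98 and 8.08 in Cul4Ash, and 8.88 and 9.13 in PAF1sh. It rose in H1.2sh (0.81 ± 0.09, adjusted p = 0.000292) and PAF1sh (1.15 ± 0.09, adjusted p = 1.09e-05) and did not pass in Cul4Ash (0.17 ± 0.09, adjusted p = 0.218).

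TRIB3, a pseudokinase induced by CHOP and ATF4, went the other way in PAF1sh. It read 9.79 and 9.78 in NCsh, 9.95 and 9.91 in H1.2sh, 9.15 and 8.94 in Cul4Ash, and 8.79 and 8.93 in PAF1sh, so that the Cul4Ash and PAF1sh arrays were the lowest (-0.74 ± 0.09, adjusted p = 0.000375, and -0.92 ± 0.09, adjusted p = 3.29e-05). ATF3, a stress-induced transcription factor, rose in PAF1sh (1.10 ± 0.08, adjusted p = 4.68e-06) and Cul4Ash (0.38 ± 0.08, adjusted p = 0.00615). PPP1R15A, which directs dephosphorylation of the translation factor that PERK modifies, rose in PAF1sh (0.81 ± 0.08) and H1.2sh (0.35 ± 0.08). ATF4 fell on the probe used in Cul4Ash (-0.35 ± 0.08, adjusted p = 0.0107), where 2 other ATF4 probes gave -0.97 and 0.15. In PAF1sh the probe used was also lower (-0.28, adjusted p over all probes = 0.0202), and the other 2 gave -0.51 and -0.05. CHAC1, a glutathione-degrading enzyme, fell in Cul4Ash (-0.49 ± 0.08, adjusted p = 0.00227) on a probe detected on 3 of the 7 arrays.

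Of 21 further genes of targeting, translocation and the signal peptidase, 3 rose and 7 fell in PAF1sh, 1 rose and 2 fell in Cul4Ash, and 0 rose and 3 fell in H1.2sh (1 higher at an unadjusted p under 0.05 by limma). These calls were 47.6%, 14.3% and 14.3% of the list, beside 38.9%, 20.6% and 15.4% of all genes. SRPRB, a subunit of the receptor for the signal recognition particle, read 11.34 and 11.36 in NCsh, 11.26 and 11.18 in H1.2sh, 11.25 and 11.15 in Cul4Ash, and 10.18 and 10.12 in PAF1sh. The PAF1sh arrays stood far below the rest, -1.21 ± 0.08 from NCsh (adjusted p = 3.44e-06). SSR2, the beta subunit of the complex to which SSR1 belongs, fell in PAF1sh on the probe used (-0.66 ± 0.08, adjusted p = 0.000172), where another probe gave -0.16. SEC61A2, a second pore gene, fell in H1.2sh (-0.81 ± 0.08, adjusted p = 0.000128) and Cul4Ash (-0.51 ± 0.08). It was also lower in PAF1sh (-0.34, adjusted p over all probes = 0.00847).

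Among 13 further chaperones and cofactors, 3 rose and 4 fell in PAF1sh, 1 rose and 2 fell in each of the other knockdowns. The shares called were 53.8% in PAF1sh and 23.1% in each of the others. All genes were called in 38.9% (PAF1sh), 20.6% (Cul4Ash) and 15.4% (H1.2sh) of cases. CRELD1, a relative of CRELD2, read 8.67 and 8.80 in NCsh, 8.34 and 8.29 in H1.2sh, 8.35 and 8.53 in Cul4Ash, and 9.61 and 9.68 in PAF1sh. It rose in PAF1sh (0.91 ± 0.09, adjusted p = 3.35e-05) and fell in H1.2sh (-0.43 ± 0.09) and Cul4Ash (-0.30 ± 0.09, adjusted p = 0.0369). TMED10, a cargo receptor of the p24 family, fell in PAF1sh (-0.78 ± 0.15, adjusted p = 0.00255). SERPINH1, the collagen chaperone, fell in H1.2sh (-0.70 ± 0.11, adjusted p = 0.00253). Of 17 further oxidoreductases and prolyl isomerases, 1 rose and 6 fell in PAF1sh, 1 rose and 3 fell in Cul4Ash, and 1 rose and 1 fell in H1.2sh. Here the shares called were 41.2%, 23.5% and 11.8%, beside the same shares of all genes. PDIA5 (-0.52 ± 0.07) and TXNDC5 (-0.50 ± 0.07), both isomerase family members, fell in PAF1sh. FKBP14, a prolyl isomerase, fell in Cul4Ash (-0.97 ± 0.19, adjusted p = 0.00651), with NCsh arrays as far apart as 10.30 and 9.62 and a second probe at -0.43.

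Of 19 further ERAD genes, 3 rose and 2 fell in PAF1sh, 1 rose and 5 fell in Cul4Ash, and 3 rose and 2 fell in H1.2sh. These calls were 26.3%, 31.6% and 26.3% of the list, beside 38.9%, 20.6% and 15.4% of all genes. RNF5, a membrane-bound ubiquitin ligase, rose in PAF1sh (0.60 ± 0.08, adjusted p = 0.000315) and Cul4Ash (0.42 ± 0.08), and VCP, the ATPase that pulls chains out of the membrane, fell in PAF1sh (-0.37 ± 0.09). NPLOC4, a VCP cofactor, rose in H1.2sh (0.48 ± 0.09), where ERLIN1, which targets the IP3 receptor for degradation, fell (-0.48 ± 0.07). TRIM13, another membrane-bound ligase, fell in Cul4Ash on the probe used (-1.06 ± 0.15, adjusted p = 0.000997), whereas its 3 other probes gave 0.04, -0.01 and -0.03. Of 13 genes of glycan trimming, 3 rose and 1 fell in PAF1sh, 1 rose and 1 fell in Cul4Ash, and 1 fell in H1.2sh. Here the shares called were 30.8%, 15.4% and 7.69%. EDEM3, a mannosidase, fell in Cul4Ash (-0.50 ± 0.10), EDEM2, which starts mannose trimming, rose in PAF1sh (0.44 ± 0.07), and UGGT2, a relative of the glucosyltransferase that senses folding, fell in H1.2sh (-0.43 ± 0.07). Of 11 oligosaccharyltransferase genes, 1 rose and 2 fell in PAF1sh, 1 rose and 1 fell in Cul4Ash, and 0 passed in H1.2sh, where 3 had an unadjusted p under 0.05 by limma. For the genes of this enzyme the shares called were 27.3%, 18.2% and 0%. MAGT1, an oxidoreductase subunit of that enzyme, read 10.32 and 9.90 in NCsh, 9.55 and 9.92 in H1.2sh, 9.37 and 9.19 in Cul4Ash, and 10.89 and 10.83 in PAF1sh. The Cul4Ash arrays were the lowest (-0.83 ± 0.15, adjusted p = 0.00394) and the PAF1sh arrays the highest (0.75 ± 0.15, adjusted p = 0.00268), and H1.2sh overlapped the controls.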

How the data were processed

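Total RNA of 293T cells was isolated with TRIzol and hybridized to Illumina arrays as biotinylated cRNA (per the labels); software is not given in the sources used here. Deposited by the authors are a scanner table of 47220 probes with linear bead signal intensity and detection p-values (7 arrays with values) and a series matrix of background-adjusted linear intensity for all 8 arrays. Set against the scanner signals, the matrix is linear, neither centred nor normalized between arrays; how its background was adjusted is unknown, and its lowest value is 50.2, so background remains and folds of dim probes are likely understated. The scanner table's 2 empty columns of values were not used. Its columns for 2 second replicates carry names that the matrix gives to other arrays, as described above, and H1.2sh replicate 2 of the matrix is missing from it.

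The log2 of the matrix values was quantile normalized. Probes were kept if detected (p under 0.05) on 2 or more of the 7 scanner arrays, whatever the column names. Genes came from GEO's platform annotation (30109 probes with 1 symbol, 8 with several, 17103 with none), with the kept probe of highest mean for each of 12300 genes. limma 3.58.1 (R 4.3.3) fitted 4 group means over 8 arrays (lmFit, eBayes; 4 residual and 6.19 prior degrees of freedom), with Benjamini-Hochberg adjustment and a threshold of 0.05, for 6 comparisons. The fit was tested on simulated data.

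The members and the other lists were chosen with earlier results of these data known. Every member that passed against NCsh is named; of the other lists, some of the 3 called genes of largest change in each list, knockdown and direction. Promoter windows are RefSeq's (GRCh38.p14), matched by symbol for 33 of the 36 genes. Alternatives were median scaling, no normalization, normexp, limma's neqc on 5 scanner arrays, the matrix values of those arrays, 2 other filters, the mean of probes, a replicate block, an intensity trend, each array left out and, added after seeing the data, all kept probes tested.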

Additional observations from a re-analysis of the deposited data

How the results depend on the processing

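No member call changed direction under the alternatives run. The median member change, close to 0 and without a test, changed sign in PAF1sh (0.0125 at first) with median scaling, without normalization and with detection on all 7 arrays, and in Cul4Ash (-0.0406 at first) with neqc, as given below. Of 29 member calls against NCsh, 16 held in all 17 alternatives on 7 or 8 arrays. The same-numbered arrays of different groups deviated with correlations from -0.133 to 0.111. These low values after quantile normalization do not show whether such arrays shared a culture or a day, which the labels do not say. With a replicate block the 3 comparisons with NCsh gave 1684, 2316 and 4644 genes, members called higher in Cul4Ash were 3 (5 without the block), and members lower in H1.2sh than in Cul4Ash were 0 (2 without it; 2 lower at an unadjusted p under 0.05 with it), no other member count having moved by over 1.5 times.

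Leaving out each array in turn (H1.2sh against NCsh) gave 1 to 4 members higher, 0 to 1 lower and 736 to 1862 genes; Cul4Ash against NCsh gave 3 higher in every such fit, 1311 to 2511 genes and a median change of -0.0593 to -0.0153; PAF1sh against NCsh gave a median of 0.0125 to 0.0444. H1.2sh against Cul4Ash gave 2 to 4 members higher, 0 to 2 lower and 1455 to 2754 genes, and Cul4Ash against PAF1sh gave 6 to 9 members lower. A lone array of a group was assumed to vary like the others.

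With median scaling, members higher were 1 in H1.2sh and 2 in Cul4Ash, member medians were -0.127, -0.105 and -0.0474, members lower in H1.2sh than in Cul4Ash were 0 (1 at an unadjusted p under 0.05) with 1707 genes, and members higher in Cul4Ash than in PAF1sh were 3. The share of called genes that were higher moved from 47.2% to 18.1% in H1.2sh, from 53.5% to 28.2% in Cul4Ash and from 48.8% to 39.7% in PAF1sh; the median change of all genes there was -0.07, -0.06 and -0.03. Without normalization, members higher were 1 in H1.2sh and 2 in Cul4Ash (1365 genes), medians were -0.146, -0.0613 and -0.0404, H1.2sh against Cul4Ash gave 2 members higher, 0 lower (2 unadjusted) and 1755 genes, and Cul4Ash against PAF1sh gave 3 higher and 5 lower.

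Without the filter on dim probes, H1.2sh gave 0 members lower (3 unadjusted) and 1036 genes, Cul4Ash gave 3 higher and 1581 genes, H1.2sh against Cul4Ash gave 2 higher, 0 lower (2 unadjusted) and 1820 genes, and Cul4Ash against PAF1sh gave 6 lower. Detection on all 7 arrays moved the PAF1sh median to -0.0212. The mean of a gene's probes moved the medians of Cul4Ash and PAF1sh to -0.0315 and 0.0219. Testing all kept probes, chosen after seeing the data, gave 3 members higher in Cul4Ash and 0 lower in H1.2sh than in Cul4Ash.

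Matrix values of the 5 undisputed arrays gave 1 member higher, 0 lower (3 unadjusted) and 738 genes in H1.2sh, 3 higher, 1332 genes and a median of -0.0163 in Cul4Ash, and a median of 0.039 in PAF1sh. H1.2sh against Cul4Ash gave 1 higher, 0 lower (1 unadjusted) and 868 genes, H1.2sh against PAF1sh 3 higher, 5 lower and 3063 genes, and Cul4Ash against PAF1sh 2 higher, 4 lower and 3266 genes. limma's neqc on the scanner signals of these 5 arrays called 0 genes and 0 members in either direction in H1.2sh (2617 genes, 4 members higher and 2 lower at an unadjusted p under 0.05) and in Cul4Ash (3162 genes, 3 members higher and 3 lower unadjusted; median 0.0199). In PAF1sh it called 4 members higher, 3 lower and 2044 genes, with a median of 0.0341. H1.2sh against Cul4Ash gave 0 members higher, 0 lower and 0 genes (2698 genes, 3 higher and 0 lower unadjusted), H1.2sh against PAF1sh 0 higher (4 unadjusted), 1 lower and 988 genes, and Cul4Ash against PAF1sh 1 higher, 2 lower and 1244 genes. Fewer arrays leave fewer residual degrees of freedom, and on these 5 the spread came from the NCsh arrays alone. Dim probes such as those of DERL3, ERP44 and EIF2AK3, at 83.2 to 122 intensity units, limit what could be seen for these genes.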
